A study of Mus musculus with 9 samples.

Results

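Prostaglandin and phospholipase A2 genes are described here by 8 members: Ptgs1, Ptgs2, Ptges, Hpgd, Ptger4, Pla2g4a, Pla2g5 and Pla2g10. They were selected on measured values of these same libraries, so their levels and fold changes are given as a description, with no test, and nothing is supported by them. All 8 were found by symbol among the 50600 genes counted in 9 RNA-sequencing libraries. A further 66 genes of the same pathway were listed by role, of which 42 passed the filter on low values and were tested. The WT organoids (6 libraries) came from the small intestine of WT mice, labelled C57BL/6, and were kept for 24 hr in a mix of fresh medium with EGF, Noggin and R-spondin1 and conditioned medium from either WT organoids (WT-cM) or tumoroids (T-cM). The tumoroids (3 libraries) were untreated cultures of Apc1638N/+ intestinal tumour cells, with the strain labelled MIX, grown for 24 hr. Each group had 3 replicates, from 3 mice for the WT organoids and 3 mice for the tumoroids. Per the study's methods, WT organoids were derived from mice of 2 to 5 months and tumours from mice of more than 6 months, tumoroids were kept without R-spondin1, and all mice were of mixed background. Genotype, strain, age and medium therefore differ together between tumoroids and WT organoids and cannot be told apart. The second copy of Apc in the tumoroids was not analysed here.

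For the 6 organoid libraries, the deposited title and the deposited treatment field name opposite media. The groups are named by the titles, as WT-cM-titled and T-cM-titled organoids, and any direction given between them is the reverse if the treatment field holds. Total counts ranged from 16541635 to 25170966 per library. CPM are counts scaled to the normalised library size, and TPM are the deposited values per gene length, used here to set 1 gene beside another. A count of 3, taken as the least that shows a transcript, was worth 0.103 to 0.204 CPM, a limit that covers counting error only. Pan-epithelial markers (Epcam, Cdh1, Krt8, Krt18 and Krt19) summed to between 6012 and 10040 CPM in every library, while Cd3e, Col3a1 and Lum were at 0 counts in all 9. Other immune and fibroblast markers did have counts. In tumoroids Csf1r was at 60, 550 and 131 counts and Cd68 at 101, 150 and 596, and Pdgfrb had 3 to 52 counts in the 9 libraries.

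Prostaglandins are short-lived lipid signals made in steps. A phospholipase A2 frees arachidonate from membrane phospholipid, a cyclooxygenase (Ptgs1 or Ptgs2) turns it into prostaglandin H2, and a terminal synthase such as Ptges makes prostaglandin E2. The product leaves the cell, binds receptors such as Ptger4, and is inactivated by the dehydrogenase Hpgd. In the intestine prostaglandin E2 is known for its part in epithelial repair and in the growth of adenomas, and cyclooxygenase inhibitors are known to reduce adenoma number in mice and people with germline APC mutations.

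In TPM, the members held a different order in tumoroids than in WT organoids. In WT-cM-titled organoids Hpgd stood first at 93.7 ± 19.6 TPM (SD, n = 3), followed by Ptger4 at 7.49 ± 0.476 and Pla2g5 at 5.02 ± 2.57. Pla2g4a at 2.82 ± 1.68, Pla2g10 at 2.04 ± 0.165 and Ptgs1 at 1.87 ± 0.256 TPM came next, and from Ptger4 down to Ptgs1 the libraries of each gene overlapped those of the next. Ptgs2 was at 0.137 ± 0.0404 TPM and Ptges at 0. T-cM-titled organoids had Hpgd at 72.8 ± 2.39 and Ptger4 at 8.62 ± 1.01 TPM, both apart from their neighbours, then Ptgs1, Pla2g4a, Pla2g10 and Pla2g5 between 1.66 and 2.82 TPM with overlapping libraries. In tumoroids Ptgs1 stood first at 108 ± 55.1 TPM and Hpgd second at 52.8 ± 15.1 TPM. Their ranges overlapped, but in each of the 3 tumoroid libraries Ptgs1 was above Hpgd. Pla2g4a at 16.3 ± 16.7, Ptgs2 at 12.6 ± 17.8, Pla2g5 at 9.21 ± 7.04, Ptger4 at 3.48 ± 0.704, Ptges at 2.66 ± 3.73 and Pla2g10 at 1.33 ± 1.98 TPM followed, and each of these overlapped the next. The plot of TPM by library shows that this spread came mostly from replicate 3, which was the highest of the 3 tumoroids for 7 of the 8 members and the lowest for Hpgd.

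**Figure D1:**
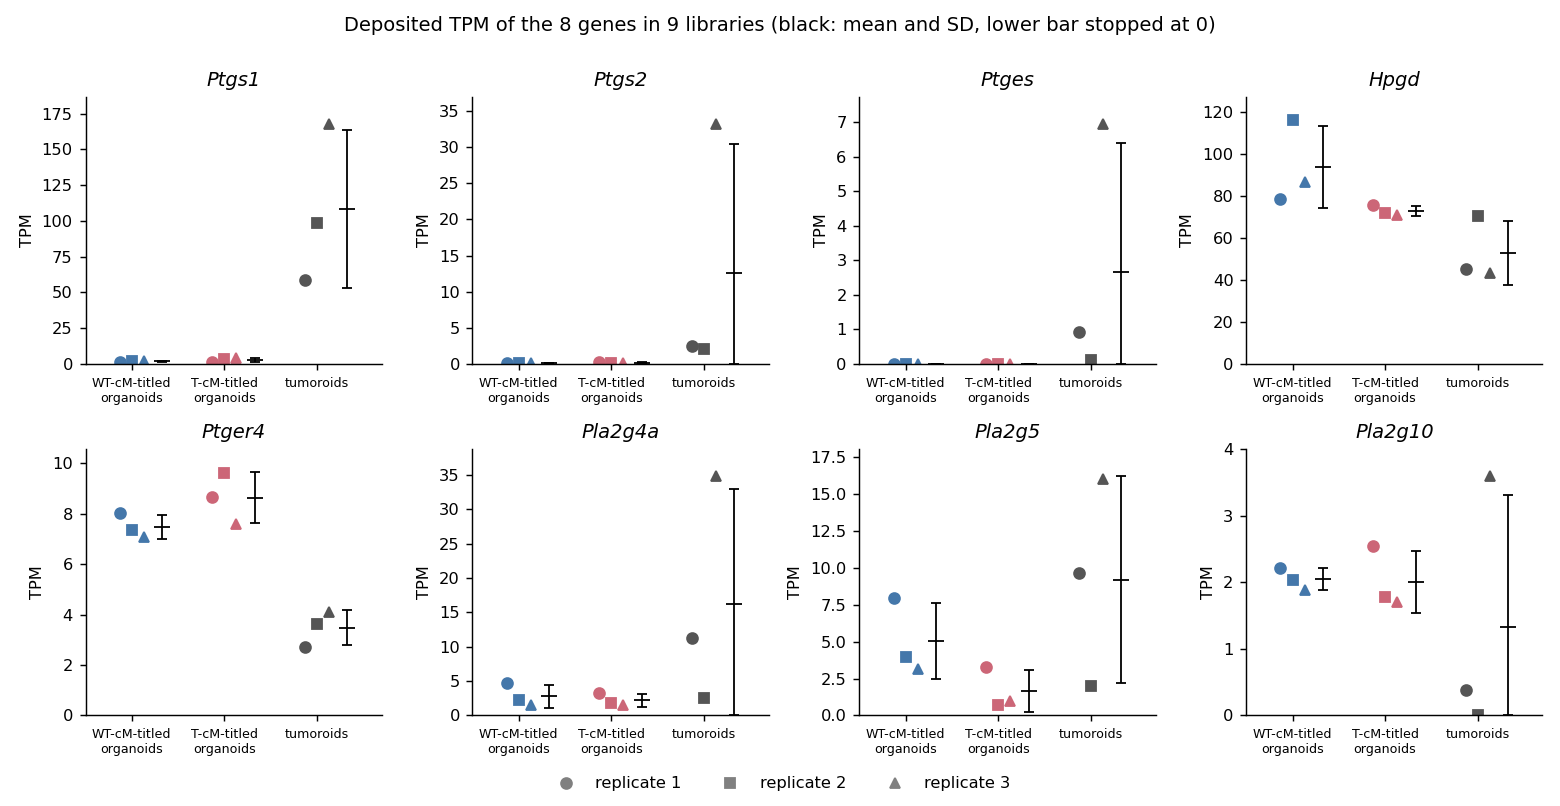
TPM (linear axes from 0) of the 8 genes in 3 WT-cM-titled organoid, 3 T-cM-titled organoid and 3 tumoroid libraries, with 1 symbol per replicate number and the mean and SD in black. Ptgs1 reached 58.7, 98.6 and 168 TPM in tumoroids against at most 3.94 in organoids, while tumoroid replicate 3 alone carried Ptgs2 to 33.2 and Pla2g4a to 34.9 TPM.

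Both cyclooxygenases stood higher in all 3 tumoroids than in any organoid library. Of 16208 genes, 28.2% had all tumoroids above all WT-cM-titled and 30.1% above all T-cM-titled organoids, and 22.5% and 23.8% had them below, as did Hpgd and Ptger4. Ptgs1 (ENSMUSG00000047250.13, chromosome 2, 36230426 to 36252272, plus strand, GRCm38) encodes COX-1, the form that many tissues make without stimulation and that intestinal tuft cells are known to contain. It was at 2.42, 2.98 and 3.63 CPM in WT-cM-titled and 1.90, 5.16 and 6.43 CPM in T-cM-titled organoids of replicates 1, 2 and 3, and at 69.7, 103 and 182 CPM in tumoroids. All 3 tumoroids were above all 6 organoid libraries, whereas the organoid groups overlapped. Its log2 fold change was 5.29 (SE 0.51, 39.0-fold) over WT-cM-titled and 4.72 (SE 0.50, 26.3-fold) over T-cM-titled organoids. Leaving out 1 library at a time moved these values between 4.83 and 5.55 and between 4.25 and 5.08.

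Ptgs2 (ENSMUSG00000032487.8, chromosome 1, 150100031 to 150108227, plus strand) encodes COX-2, the form that growth factors and inflammatory signals are known to induce. Its counts were 5, 5 and 4 in WT-cM-titled and 8, 5 and 5 in T-cM-titled organoids, just above the limit of 3. In tumoroids its counts were 77, 69 and 1236, which is 3.49, 2.57 and 42.5 CPM. All 3 tumoroids were above all organoids, and replicate 3 stood far above the other two. This gave a log2 fold change of 5.99 (SE 1.16) over WT-cM-titled and 5.51 (SE 1.12) over T-cM-titled organoids, and 3.57 and 3.08 without tumoroid replicate 3. COX-1 transcripts made up most of the pair in every library: Ptgs1 was 84.0% to 96.3% of the summed TPM of Ptgs1 and Ptgs2 in organoids, and 95.9%, 97.9% and 83.5% in tumoroids of replicates 1, 2 and 3.

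Ptges (ENSMUSG00000050737.13, chromosome 2, 30889471 to 30929863, minus strand) encodes microsomal prostaglandin E synthase, the inducible terminal enzyme for prostaglandin E2. It had 0 counts in all 6 organoid libraries and 25, 3 and 222 counts in tumoroids, or 1.13, 0.112 and 7.63 CPM. Replicate 2 was therefore at the limit of detection. Against a floor of 3 counts per library, taken at the shallowest library of each organoid group, tumoroid replicate 1 was at least 6.21-fold higher than WT-cM-titled and at least 5.57-fold higher than T-cM-titled organoids. The same bounds for replicate 3 were 41.8-fold and 37.5-fold. Without replicate 3, Ptges no longer reached 1 TPM in any library.

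The start regions of the members were read for 8 motifs, in RefSeq windows from 250 bases before to 50 bases after each annotated start (GRCm38.p6). The upstream stretches of Ptgs1, Ptgs2 and Ptges are shown because these 3 genes were past the call rule as higher in tumoroids against both organoid groups. Ptges was so on replicates 1 and 3. The choice rests on the values that selected the members, and nothing is read from it. Capitals mark matches to GGGCGG (GC box) and to GGAATG, which reads CATTCC on the other strand (core of a TEAD site).
Ptgs1, chr2:36230176-36230425, plus strand: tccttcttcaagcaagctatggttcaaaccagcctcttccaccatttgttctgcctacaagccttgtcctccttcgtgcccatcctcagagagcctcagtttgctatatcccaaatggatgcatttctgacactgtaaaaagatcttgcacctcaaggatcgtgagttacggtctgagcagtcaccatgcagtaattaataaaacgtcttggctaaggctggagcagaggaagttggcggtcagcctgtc
Ptgs2, chr1:150099781-150100030, plus strand: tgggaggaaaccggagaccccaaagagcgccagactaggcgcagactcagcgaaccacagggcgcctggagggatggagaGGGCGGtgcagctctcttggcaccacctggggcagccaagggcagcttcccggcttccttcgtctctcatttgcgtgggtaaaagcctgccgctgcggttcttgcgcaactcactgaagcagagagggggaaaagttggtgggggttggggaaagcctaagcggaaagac
Ptges, chr2:30903298-30903547, minus strand: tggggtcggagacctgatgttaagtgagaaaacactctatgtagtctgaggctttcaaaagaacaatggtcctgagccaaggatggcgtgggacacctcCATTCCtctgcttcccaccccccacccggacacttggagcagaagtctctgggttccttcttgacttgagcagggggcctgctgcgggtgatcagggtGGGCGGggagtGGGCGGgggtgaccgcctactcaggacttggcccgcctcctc
A short stretch after the annotated start of Ptgs2 held ACGTCA, the core of a cAMP response element, and CACGTG, an E-box, which share bases and are marked together in capitals.
Ptgs2, chr1:150100034-150100063, plus strand: gtcaccactACGTCACGTGgagtccgcttt
Of 32851 RefSeq windows of 300 bases, searched on both strands, 7.51% held ACGTCA, 7.15% CACGTG, 35.7% GGGCGG and 14.7% GGAATG. All 8 members had a window, and Pla2g4a and Pla2g5 had 2 each. The RefSeq window of Ptges lies inside the Gencode gene, away from its Gencode start at 30929863. Ptgs2 alone of the 8 held ACGTCA or CACGTG, and Ptgs1 held none of the 8 motifs. None of the members held TGANTCA (AP-1) or ATCAAAG (TCF), which 7.81% and 3.73% of all windows held. GGGCGG was also in the windows of Hpgd, Ptger4 and Pla2g10, and GGAATG in both windows of Pla2g5 and that of Pla2g10, 4 genes of which none was past the call rule as higher against WT-cM-titled organoids. TATAAA was found in the window of Hpgd and in 1 of the windows of Pla2g4a, and CCAAT in those of Ptger4 and Pla2g10, both of Pla2g5 and 1 of Pla2g4a, against 13.6% and 37.4% of all windows. A match is a description of these letters only.

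The 3 phospholipases A2 had no single direction in tumoroids, and each varied widely between the tumoroid libraries. Pla2g4a (ENSMUSG00000056220.14, chromosome 1, 149829618 to 149961290, minus strand) encodes the calcium-dependent cytosolic phospholipase A2 that prefers arachidonate, and it lies 138741 bases from Ptgs2. It was at 11.5, 5.84 and 4.30 CPM in WT-cM-titled and 8.20, 4.89 and 3.95 CPM in T-cM-titled organoids, lower in T-cM-titled organoids in 3 of 3 pairs of the same number, with a log2 fold change of -0.30 (SE 0.16). Tumoroids were at 22.1, 4.46 and 62.2 CPM. Replicate 2 lay within the organoid range and the other two above it, so the groups overlapped. In tumoroids the log2 fold change was 2.04 (SE 0.78) over WT-cM-titled and 2.38 (SE 0.79) over T-cM-titled organoids, and 0.87 and 1.21 without tumoroid replicate 3.

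Pla2g5 (ENSMUSG00000041193.15, chromosome 4, 138799244 to 138863482, minus strand), a secreted phospholipase A2, was the member that differed most between the organoid groups. It had 159, 78 and 90 counts in WT-cM-titled and 70, 12 and 21 counts in T-cM-titled organoids, or 8.74, 4.74 and 3.99 against 3.70, 0.814 and 1.18 CPM. Every T-cM-titled library was below every WT-cM-titled one, as for 5.28% of all genes, although replicate 1 of the former nearly reached replicate 3 of the latter. The fitted log2 fold change was -1.67 (SE 0.22), and it ranged from -2.08 to -1.44 with 1 pair left out. Tumoroids, at 8.48, 1.52 and 12.9 CPM, overlapped both organoid groups. Their log2 fold change was 0.39 (SE 0.74) over WT-cM-titled organoids and -0.23 without tumoroid replicate 3. Over T-cM-titled organoids it was 1.99 (SE 0.78), 1.36 without tumoroid replicate 3 and 2.92 without T-cM-titled replicate 1. In release 21 of the Gencode annotation Pla2g5 shares 3330 bases with Pla2g2a on the opposite strand, and the strand setting of the counts is not given in the sources used here, so reads in that stretch cannot be assigned with certainty. Pla2g2a itself did not follow Pla2g5, at a log2 fold change of 0.10 (SE 0.17, adjusted p = 0.79) between the organoid groups.

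Pla2g10 (ENSMUSG00000022683.13, chromosome 16, 13715057 to 13730983, minus strand), another secreted phospholipase A2 with high activity on phosphatidylcholine, was steady in organoids and scattered in tumoroids. Its counts were 23, 21 and 28 in WT-cM-titled and 28, 16 and 19 in T-cM-titled organoids, with a log2 fold change of -0.05 (SE 0.32). In tumoroids its counts were 4, 0 and 44. A count of 0 in replicate 2 allows up to 3 counts at this depth, and replicate 3, at 1.51 CPM, stood above all organoid libraries. Its log2 fold change of -1.13 (SE 1.02) over WT-cM-titled and -1.08 (SE 1.02) over T-cM-titled organoids became -3.81 and -3.76 without replicate 3. Its antisense transcript Pla2g10os, which overlaps it by 1148 bases, had between 0 and 13 counts in the 9 libraries.

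Hpgd (ENSMUSG00000031613.9, chromosome 8, 56294585 to 56321043, plus strand) encodes 15-hydroxyprostaglandin dehydrogenase, which begins the breakdown of prostaglandin E2 and is known in enterocytes. It was at 50.3, 81.2 and 63.9 CPM in WT-cM-titled, 49.3, 49.2 and 50.1 CPM in T-cM-titled organoids, and 23.2, 31.6 and 20.3 CPM in tumoroids. The tumoroids were below all organoids. The T-cM-titled libraries lay close together, each below all WT-cM-titled ones, as for 5.28% of all genes. The gap was small, with T-cM-titled replicate 3 at 50.1 and WT-cM-titled replicate 1 at 50.3 CPM. Hpgd stood at a log2 fold change of -1.38 (SE 0.21, 2.6-fold lower) in tumoroids against WT-cM-titled and -0.98 (SE 0.21) against T-cM-titled organoids. In the organoid comparison it was -0.35 (SE 0.10), and it ranged from -0.52 to -0.19 with 1 pair left out. It was lower in 3 of 3 pairs, but nearly level in pair 1 (-0.029). Enterocyte markers moved with Hpgd in the tumoroids: 8 of 8 were lower at the call rule, and their sum was 333.9 to 534.4 CPM in tumoroids against 15940 to 31200 CPM in organoids. Their part in the level of Hpgd was not tested, and in such bulk samples fewer cells of a type cannot be told apart from less RNA per cell.

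Transcripts of the cyclooxygenases and of Hpgd were set side by side in TPM. These values do not measure enzyme activity or prostaglandin levels. The sum of Ptgs1 and Ptgs2 was 1.5 to 4.09 TPM in organoids and 61.2, 101 and 201 TPM in tumoroids. Divided by Hpgd, it was 0.0228, 0.0173 and 0.0257 in WT-cM-titled, 0.0199, 0.0480 and 0.0576 in T-cM-titled organoids, and 1.36, 1.44 and 4.66 in tumoroids. The ratio was above 1 in all 3 tumoroids and at most 0.0576 in organoids, and the 2 organoid groups overlapped. The plot of cyclooxygenase against Hpgd transcripts shows that most of this gap lay on the cyclooxygenase side.

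**Figure D2:**
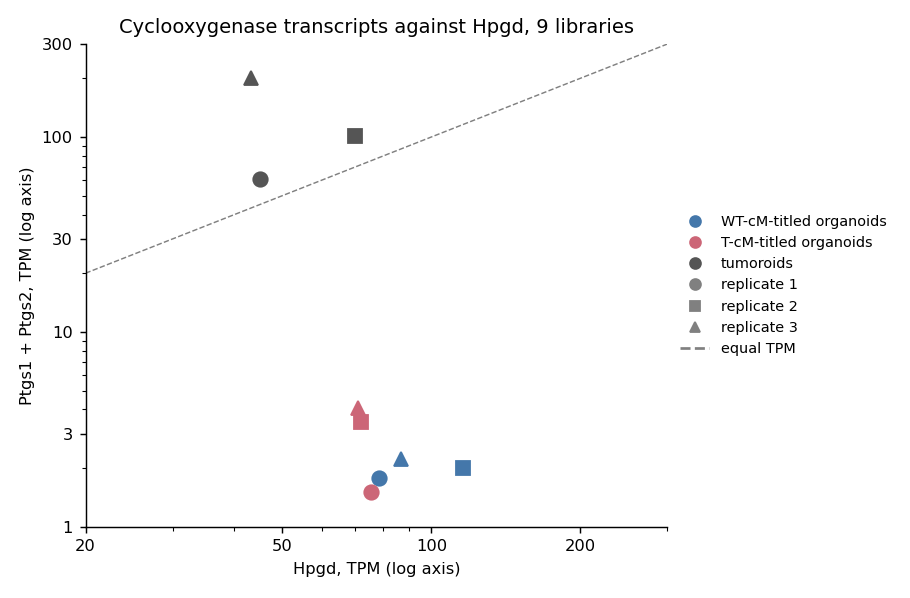
Summed TPM of Ptgs1 and Ptgs2 against TPM of Hpgd in 9 libraries, both on log axes, coloured by group with 1 symbol per replicate number. The dashed line marks equal TPM, and the 3 tumoroids lie above it at ratios of 1.36 to 4.66 while the 6 organoid libraries lie far below.

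Ptger4 (ENSMUSG00000039942.15, chromosome 15, 5206661 to 5244187, minus strand) encodes EP4, a prostaglandin E2 receptor that raises cAMP. Its values were 20.3, 20.4 and 20.6 CPM in WT-cM-titled, 22.3, 26.0 and 21.2 CPM in T-cM-titled organoids, and 5.53, 6.43 and 7.63 CPM in tumoroids. The 3 groups did not overlap, and 5.12% of all genes were likewise higher without overlap in T-cM-titled organoids. Its log2 fold change was -1.64 (SE 0.19, 3.13-fold lower) in tumoroids against WT-cM-titled and -1.82 (SE 0.19, 3.54-fold lower) against T-cM-titled organoids, and 0.19 (SE 0.11) between the organoid groups. With 1 library left out, the tumoroid values ranged from -1.78 to -1.54 and from -1.96 to -1.72. The gene overlaps Ttc33 on the other strand by 11676 bases, which leaves reads there uncertain in the same way.

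**Figure D3:**
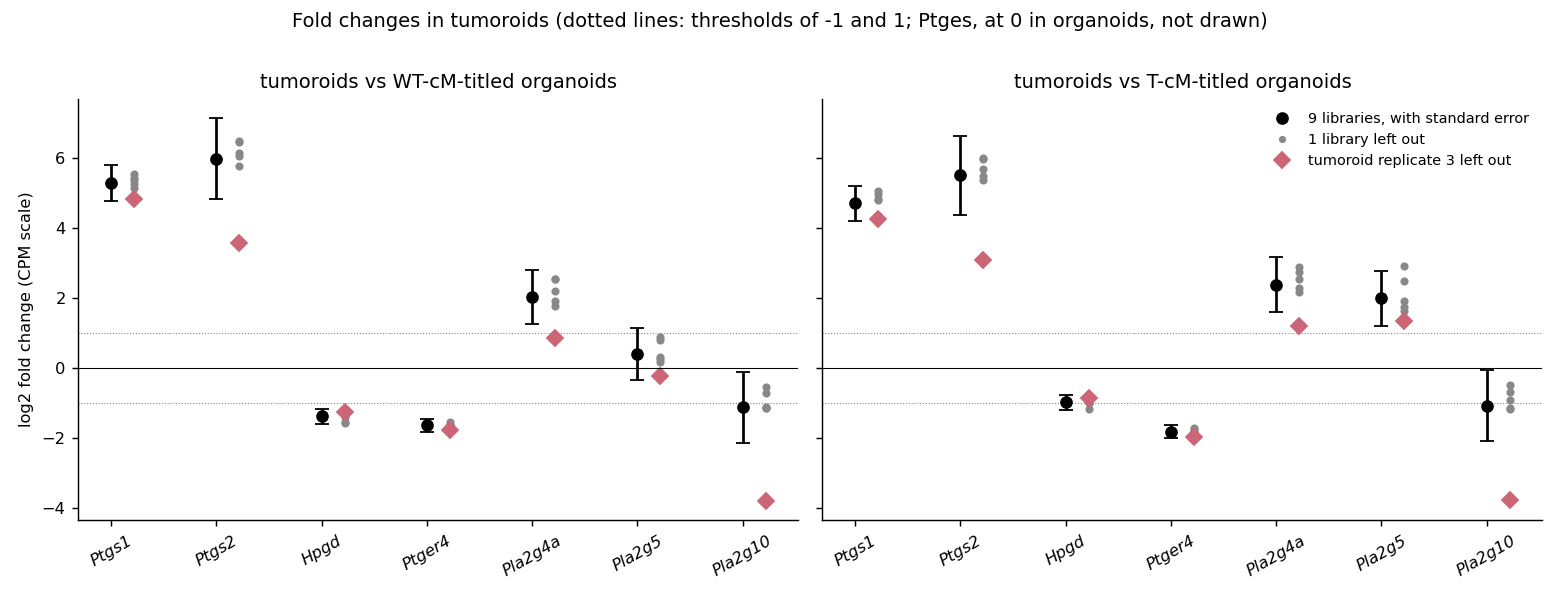
Log2 fold change in CPM of 7 members in tumoroids against each organoid group, with standard error (black), and with 1 library left out (grey) or tumoroid replicate 3 left out (red). Ptgs1, Hpgd and Ptger4 stayed close to their values, while without replicate 3 Ptgs2 went from 5.99 to 3.57 and Pla2g10 from -1.13 to -3.81 against WT-cM-titled organoids.

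Over the members as a set, the call rule was an adjusted p under 0.05 (edgeR's quasi-likelihood test, Benjamini-Hochberg over all genes tested) with an absolute log2 fold change above 1. Since the members were chosen with these values known, the counts are printed with the share of all genes past the same rule and nothing is read from them. All 8 members passed the filter of 1 TPM in at least 1 library, and Ptgs2 and Ptges did so only through tumoroids, the group where they are high. In tumoroids against WT-cM-titled organoids 3 members were past the rule as higher (Ptgs1, Ptgs2 and Ptges) and 2 as lower (Hpgd and Ptger4), beside 18.2% and 11.6% of 16208 genes. In tumoroids against T-cM-titled organoids 4 were past it as higher (the same 3 and Pla2g4a) and 1 as lower (Ptger4), beside 19.4% and 11.8%. Between the organoid groups 0 of 7 members were past it as higher and 1 as lower (Pla2g5), beside 0.690% and 0.443% of 15797 genes. The median log2 fold change of the members was 1.22, 2.19 and -0.05 in these comparisons (the first 2 are the same with Ptges at its lower bound), beside 0.15, 0.16 and -0.000581 over all genes tested. Both tumoroid comparisons share the same 3 tumoroid libraries. Under the deposited TPM in place of normalised counts, the median of all genes against WT-cM-titled organoids was 0.52 and 78.5% of the calls were higher in place of 61.1%, and each member kept its direction in the tumoroid comparisons.

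The plot of organoid pairs shows how the members stood within each replicate number. Hpgd, Pla2g4a and Pla2g5 were lower in the T-cM-titled library in 3 of 3 pairs, while Ptger4 and Ptgs2 were higher in 3 of 3 pairs. Hpgd was nearly level in pair 1, at -0.029 on the log2 scale. Ptgs2 had only 4 to 8 counts in these libraries, with 5 counts on both sides of pair 2. Ptgs1 was lower in pair 1 and higher in the other two, by 0.77 and 0.81 on the log2 scale, with a fitted log2 fold change of 0.52 (SE 0.22). Pla2g10 was the member nearest to equal levels.

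**Figure D4:**
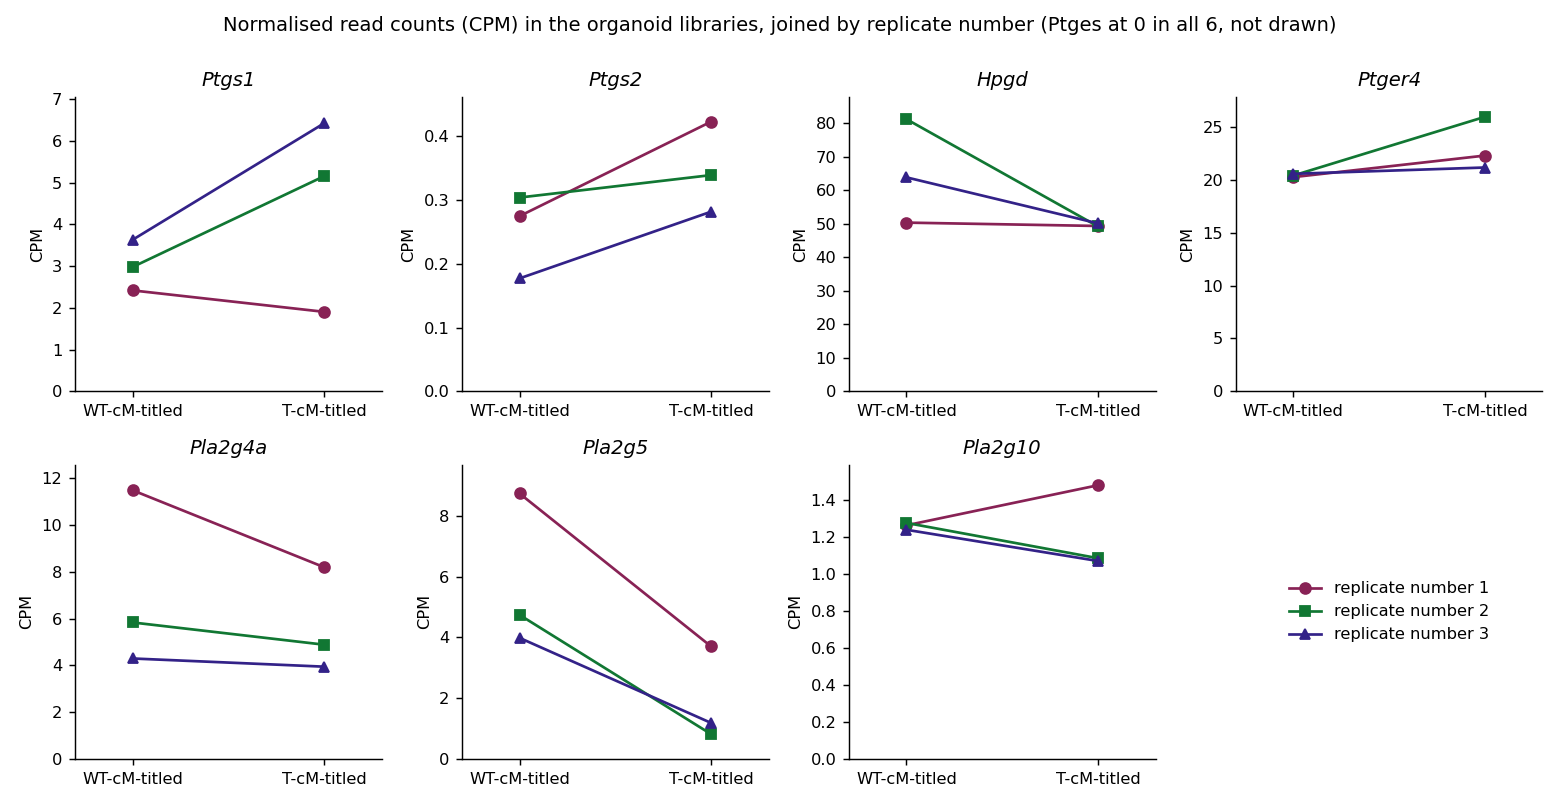
CPM (linear axes from 0) of 7 members in WT-cM-titled and T-cM-titled organoids, with a line joining libraries of the same replicate number. Pla2g5 falls along all 3 lines, from 8.74 to 3.70, from 4.74 to 0.814 and from 3.99 to 1.18 CPM, while Ptgs2 stays at or under 0.423 CPM.

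The other genes of the pathway placed the members among their neighbours. Of 66 listed genes all were in the table and 42 passed the filter. In tumoroids against WT-cM-titled organoids 16 rose and 8 fell (38.1% and 19.05%, beside the 18.2% and 11.6% over all genes), with a median log2 fold change of 0.27. Of the 42, 7 reached 1 TPM only in tumoroids (Alox12, Alox12e, Hpgds, Mgll, Pla2g2d, Pla2g4c and Ptger3), of which 6 rose, and 3 only in organoids (Alox5, Ltb4r1 and Ltb4r2), which all fell. These passed the filter through the group where they are high. Of the other 32 genes, 10 rose and 5 fell, beside 12.2% higher and 11.8% lower of the 12855 genes that reached 1 TPM in both. Against T-cM-titled organoids 15 rose and 8 fell, beside 19.4% and 11.8% of all genes, with a median of 0.47. Of the same 32 genes, 9 rose and 5 fell, beside 13.4% and 12.1%. Between the organoid groups 1 of 41 rose and 0 fell, and at an unadjusted p under 0.05 there were 9 higher and 7 lower, beside the 0.690% and 0.443% of all genes past the rule and 11.2% and 11.4% at the unadjusted p. The adjusted p-values below are from edgeR's quasi-likelihood test over all genes.

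Of the terminal synthases beside Ptges, 3 of 7 rose and 2 fell in tumoroids against WT-cM-titled organoids. Against T-cM-titled organoids 2 rose and 2 fell, since Akr1b3 was not past the rule there (1.65, SE 0.62, adjusted p = 0.055). Tumoroid fold changes of synthases below are against WT-cM-titled organoids. Ptgds, the lipocalin-type prostaglandin D synthase, was at 0.220, 0.243 and 0.177 CPM in WT-cM-titled, 0.423, 1.29 and 1.41 CPM in T-cM-titled organoids, and 16, 46.7 and 14.98 CPM in tumoroids. The 3 groups did not overlap. It rose in tumoroids (log2 fold change 6.90, SE 0.68, adjusted p = 6e-05), and it was the only listed gene that rose between the organoid groups (2.25, SE 0.53, adjusted p = 0.0054, higher in 3 of 3 pairs). That call rests on 4 counts in each WT-cM-titled library and was lost without replicate 2 (adjusted p = 0.36) or replicate 3 (adjusted p = 0.23).
Hpgds, the haematopoietic prostaglandin D synthase, which tuft cells also make, was at 9.93, 48.1 and 9.69 CPM in tumoroids and at most 2.13 CPM in organoids (log2 fold change 3.76 over WT-cM-titled, SE 0.67, adjusted p = 0.0017). Akr1b3, an aldose reductase with prostaglandin F synthase activity, rose against WT-cM-titled organoids (2.05, SE 0.63, adjusted p = 0.026), with replicate 2 at 364 CPM and the other tumoroids at 61.2 and 60.3. Without tumoroid replicate 2 its log2 fold change was 0.64 (adjusted p = 0.040), under the fold threshold, and the call was also lost without WT-cM-titled replicate 2 (adjusted p = 0.083) or replicate 3 (adjusted p = 0.088). Cbr1, a carbonyl reductase that can act on prostaglandin E2, fell (-2.82, SE 0.31, adjusted p = 0.0001), and so did Fam213b, a prostamide and prostaglandin F synthase (-1.16, SE 0.40, adjusted p = 0.041). The call for Fam213b was lost without tumoroid replicate 3 (-0.78, adjusted p = 0.016), without WT-cM-titled replicate 2 (-1.12, adjusted p = 0.10) and without WT-cM-titled replicate 3 (-1.03, adjusted p = 0.12). The other prostaglandin E synthases did not pass the rule: Ptges2 was at -0.78 (SE 0.17, adjusted p = 0.0047) and Ptges3 at 0.12 (SE 0.20, adjusted p = 0.67).

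Of the 8 other prostanoid receptors only Ptger3 passed the filter. Ptger3 encodes EP3, a prostaglandin E2 receptor that lowers cAMP, and it stood at 4.53, 17.6 and 8.62 CPM in tumoroids against at most 0.547 CPM in organoids. All 3 tumoroids were above all organoids, which the filter favours for a gene that reached 1 TPM in tumoroids alone. Its log2 fold change was 4.52 (SE 0.62, adjusted p = 0.00037) over WT-cM-titled organoids. The remaining prostaglandin E2 receptors were low or absent, with Ptger1 at 10, 31 and 8 counts in tumoroids and 2 or 3 in organoids, and Ptger2 at 0 counts in all 9 libraries, which allows up to 3 counts in each. Abcc4, an exporter of prostaglandins, rose in tumoroids (2.44, SE 0.42, adjusted p = 0.0015), the only 1 of 5 transport and inactivation genes that passed the rule.

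Of 13 tested genes of arachidonate release and return to phospholipid, 5 rose and 2 fell against WT-cM-titled organoids. Pla2g15, the lysosomal phospholipase A2, was at 7.02, 6.28 and 10.2 CPM in tumoroids and at most 1.26 CPM in organoids (2.73, SE 0.36, adjusted p = 0.00028). Lpcat3, which returns arachidonate to phospholipid, fell (-1.99, SE 0.19, adjusted p = 4.9e-05), as did Pla2g12b, a catalytically inactive family member (-3.24, SE 0.53, adjusted p = 0.00098). Pla2g16 did not reach the fold threshold against WT-cM-titled organoids (0.89, SE 0.23, adjusted p = 0.012) and passed it against T-cM-titled organoids (1.49, SE 0.24, adjusted p = 0.00086). At an adjusted p under 0.05 without a fold threshold, it was the 1 listed gene lower in T-cM-titled organoids (-0.59, SE 0.11, adjusted p = 0.00075), and Ptgds, Nr4a2, Akr1b3 and Abcc4 were higher, beside 5.26% and 5.22% of all genes. All 5 of these were lost without replicate 2 (adjusted p = 0.36 to 0.53), without the replicate block and on log2(TPM + 1). Without replicate 3 each but Pla2g16 was lost (adjusted p = 0.091 to 0.56), and Abcc4, at an adjusted p of 0.048, was lost in 10 of 12 alternatives. Nr4a2 (0.73, SE 0.17, adjusted p = 0.0049) is named here after its value was seen.

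Of 9 tested genes of the lipoxygenase branch, which competes for the same arachidonate, 2 rose (Alox12 and Alox12e) and 4 fell in tumoroids, and 5 of these 6 passed the filter through 1 side alone, Lta4h being the exception. Alox12, a 12-lipoxygenase, had at most 1 count in each organoid library and was at 6.71, 8.40 and 15.9 CPM in tumoroids (adjusted p = 5.2e-05 against WT-cM-titled organoids). Alox12e, another 12-lipoxygenase, had 0 counts in all organoids and 0, 89 and 65 counts in tumoroids, so the groups overlapped, and its call (adjusted p = 0.043) was lost without tumoroid replicate 2 (adjusted p = 0.083), tumoroid replicate 3 (adjusted p = 0.066) or any WT-cM-titled replicate (adjusted p = 0.078 to 0.092). Ltb4r1 and Ltb4r2, the leukotriene B4 receptors, fell by 5.16 (SE 0.45, adjusted p = 3.3e-05) and 4.91 (SE 0.50, adjusted p = 6.7e-05) on the log2 scale, and Lta4h, which makes their ligand, fell by 1.10 (SE 0.16, adjusted p = 0.0005), and by 0.99 under upper-quartile factors and 0.57 on log2(TPM + 1), both short of the fold threshold. Of 7 tested genes known to respond to cAMP, the second messenger of Ptger4, 4 rose and 0 fell against WT-cM-titled organoids. The shares over all genes were 18.2% and 11.6%. Areg and Per1 went down without passing the rule, at -0.75 (SE 0.25, adjusted p = 0.037) and -0.33 (SE 0.44, adjusted p = 0.58). Against T-cM-titled organoids 3 rose and 0 fell, beside 19.4% and 11.8%. A link of these genes to Ptger4 was not tested. Of the 4, Nr4a2 and Sik1 were no longer past the rule without tumoroid replicate 3, at 0.62 (adjusted p = 0.17) and 0.76 (adjusted p = 0.012), and Nr4a2 was also lost without any 1 of the WT-cM-titled replicates (adjusted p = 0.082 to 0.14). Nr4a1, an immediate-early nuclear receptor, was at 14.1, 15.1 and 15.7 CPM in tumoroids and at most 2.70 CPM in organoids (3.00, SE 0.31, adjusted p = 6.8e-05).

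**Figure D5:**
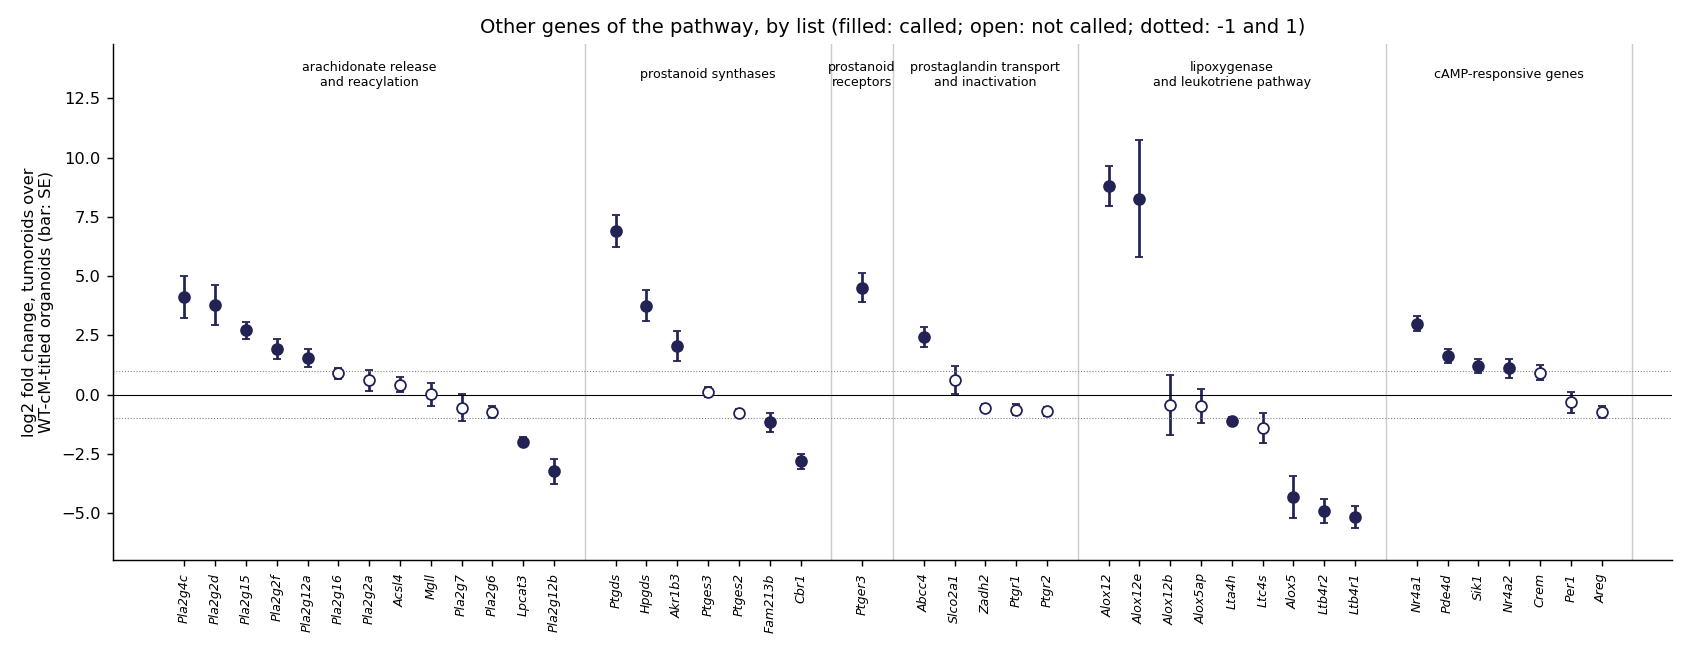
Log2 fold change of the 42 other pathway genes that passed the filter, tumoroids over WT-cM-titled organoids, with standard error, grouped by list (filled points passed the call rule, open points did not). The lists hold genes in both directions, with Ptgds at 6.90 and Ltb4r1 at -5.16. The 2 highest points belong to genes at or near 0 counts in organoids, whose fitted values depend on the prior count.

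Markers of cell types that carry these genes were read beside them. The 12 tuft markers summed to 47.8 to 67.5 CPM in WT-cM-titled, 49.2 to 67.9 in T-cM-titled organoids and 69.5 to 111.8 CPM in tumoroids. Much of the tumoroid sum was Avil alone, at 35.1, 41.9 and 52.8 CPM there and 8.90 to 11.1 CPM in organoids. Of 9 that were tested, 2 rose (Pou2f3 and Avil), at 2.09 (SE 0.29, adjusted p = 0.00042) and 2.16 (SE 0.19, adjusted p = 3.7e-05) against WT-cM-titled organoids. The other 7 did not pass. Among these, Gfi1b was at 3.12 (SE 1.14, adjusted p = 0.052), with 17, 6 and 221 counts in tumoroids, and Il17rb at 0.26 (SE 0.51, adjusted p = 0.72). Dclk1, Trpm5, Sh2d6, Rgs13 and Bmx were between -1.27 and -0.29 (adjusted p = 0.064 to 0.71). Immune markers summed to 1.48 to 5.52 CPM in organoids and to 7.70, 27.1 and 25.5 CPM in tumoroids, carried by Csf1r and Cd68, with Cd3e at 0 in every library and Adgre1 at 0 in tumoroids. Fibroblast markers summed to 0.499 to 2.47 CPM in tumoroids, highest in replicate 3, and endothelial markers to 0.272 to 2.03. Lists of other epithelial cells also moved in tumoroids against WT-cM-titled organoids, where 18.2% of all genes rose and 11.6% fell. Of 5 crypt stem markers 4 rose, and the remaining one, Olfm4, was at -2.85 (SE 1.26, adjusted p = 0.098). In the other lists 4 of 6 goblet, 3 of 6 Paneth and 4 of 6 enteroendocrine markers fell and 1 Paneth marker rose. Crypt stem markers summed to 488.2 to 654.6 CPM in tumoroids and 69.1 to 314.3 CPM in organoids, and goblet markers to 193.6 to 736.4 and 2328 to 2471 CPM. Between the organoid groups Gcg, an enteroendocrine marker, was lower at the rule (-1.11, SE 0.15, adjusted p = 9.8e-06), and no other listed marker passed it. Without the fold threshold other epithelial markers were lower there at an adjusted p under 0.05, among them Fabp1 and Smoc2 (-0.61 each). Alpi was higher, at 0.75. The part of these cell types in the levels of the members and of Hpgds was not tested.

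Non-members with the profile most like each member, up to 3 for each, were found by the root mean square difference of centred log2 CPM over the 9 libraries. For Ptgs1 they were Adamtsl4, Limch1 and Cpne8 (differences of 0.37, 0.40 and 0.41 on the log2 scale), and for Ptgs2 they were Ltbp1, Cpa4 and Krt90 (0.37, 0.38 and 0.40), each higher in all tumoroids. Ptges was nearest to Pax9, Slc26a9 and Hmgcll1 (0.23, 0.25 and 0.26), genes with 0 counts in 5 or 6 of the organoid libraries. Ptger4 had the closest neighbours, Gipc2, Tmem41b and Ankrd13a (0.10, 0.12 and 0.12), and Hpgd was nearest to Tmem65, Rfk and Lrrc57 (0.14, 0.16 and 0.17), all lower in tumoroids. Pla2g5 had Aqp4 as its nearest gene (0.54), a water channel, followed by Gm684. Pla2g4a was nearest to Pdcd1lg2, Celf4 and Kctd12b (0.34, 0.42 and 0.44), and Pla2g10 to Znf41-ps, Zfp182 and Fut8 (0.28, 0.44 and 0.47). Likeness was measured over libraries that share their group and depth, and it is given as a description.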

How the data were processed

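Gene expression was measured by stranded, polyA-selected RNA-sequencing in 9 libraries. The authors aligned the reads to mm10 with STAR and counted them on Gencode genes. They deposited raw counts, not normalised, and TPM, for which the authors corrected the counts for gene length and library total. The counting tool and its strand setting are not given in the sources used here.

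Counts were normalised by TMM and compared in R 4.3.3 with edgeR 4.0.16 (quasi-likelihood F test in the form used before edgeR 4), over genes with at least 1 TPM in at least 1 library, with Benjamini-Hochberg adjustment over all genes tested. For the organoid comparison (6 libraries) replicate number was a block, and genes with no organoid count were left out. Tumoroids were compared with each organoid group over 9 libraries without a block, as in the study's models. A call needed both an adjusted p under 0.05 and a log2 fold change above 1 in size. Replicate numbers came from the titles. Deviations from the group means of same-numbered organoid libraries correlated at 0.55, 0.34 and 0.55 over genes, so the numbers pair them.

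The methods were tested on simulated data. The alternatives used limma 3.58.1, DESeq2 1.42.0, other scalings and filters, the deposited TPM on a log2 scale with a pseudocount of 1, and each library left out. The members and the lists were chosen with earlier results of these data known. Named beside the members were listed genes called in a comparison (up to 12 by smallest p), synthases and receptors that passed the filter, overlapping genes and the 3 most similar profiles, of which one is not reported here. Log2 CPM for profiles used a prior count of 2. Positions are from Gencode release 21, a later release than the one the study counted on, and promoter windows are from RefSeq. No 2 libraries were identical.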

Additional observations from a re-analysis of the deposited data

How the results depend on the processing

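The directions of Ptgs1, Ptgs2, Hpgd and Ptger4 held in both tumoroid comparisons under every alternative run, and 302 of 319 member values stayed within 1 SD between replicates. For members in tumoroids against T-cM-titled organoids, those past the rule as lower numbered 1, and 2 (with Hpgd) under RLE factors, limma voom, DESeq2, a threshold on adjusted p alone or a replicate block, and 1 to 2 with a library left out. Those past it as higher numbered 4, and 2 to 5 with a library left out, with 2 without T-cM-titled replicate 2, T-cM-titled replicate 3 or tumoroid replicate 3. Pla2g4a was lost in these 3, under limma voom and, with Pla2g5 past the rule in its place, with a replicate block. Ptges was lost without any 1 of the T-cM-titled replicates, without tumoroid replicate 1, under the form of edgeR 4 and on log2(TPM + 1), and it was not tested without tumoroid replicate 3 or with filterByExpr. Against WT-cM-titled organoids the higher count was 3, with a range of 2 to 4, since Ptges was lost in all but 1 of these, and the lower count was 2, or 0 on log2(TPM + 1), with a range of 2 to 3. There Ptges was also lost under the form of edgeR 4 and on log2(TPM + 1), and not tested with filterByExpr. Pla2g4a was past the rule as higher under upper-quartile factors, DESeq2, no TPM filter or without tumoroid replicate 2. DESeq2 gave Ptgs2 no p-value in either tumoroid comparison, so its counts leave that gene out. Between the organoid groups the lower count was 1 (Pla2g5), 2 on adjusted p alone (with Hpgd), and 0 on log2(TPM + 1), without the replicate block or without replicate 2 (range 0 to 1), and the higher count was 0 throughout.

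For the other pathway genes between the organoid groups, the higher count was 1, with 4 on adjusted p alone, 0 with filterByExpr, on log2(TPM + 1) or without the replicate block, and 0 under DESeq2, which gave Ptgds no adjusted p. Its range with a replicate left out was 0 to 2. The lower count was 0, with 1 under the form of edgeR 4, without the TPM filter or on adjusted p alone (range 0 to 1). The lower counts in tumoroids were 8 and 8, with 14 against WT-cM-titled and 13 against T-cM-titled organoids on adjusted p alone, and 5 against the latter on log2(TPM + 1). Against T-cM-titled organoids 2 values changed sign with an adjusted p under 0.05 on 1 side: Zadh2, at -0.41 (adjusted p = 0.046), was 0.0874 on log2(TPM + 1) (adjusted p = 0.65), and Slco2a1, at 0.52 (adjusted p = 0.50), was -0.77 without tumoroid replicate 2 (adjusted p = 0.037) and up to 0.90 with another library left out. A further 5 of these genes there, 8 against WT-cM-titled organoids and 11 between the organoid groups changed sign under an alternative with no such p on either side. The cause was not tested. Same-numbered tumoroid and WT-cM-titled libraries share only a number (deviations correlated at 0.08, 0.03 and -0.07), as do tumoroid and T-cM-titled libraries (0.20, 0.12 and -0.06), and the block there changed no other member count by more than 1.5 times. Low counts limit Ptgs2, Ptges and Ptgds in organoids.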
